A study of Mus musculus with 2 samples.

Results

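Aurka, Aurkb, Tpx2, Bora, Plk1, Incenp, Birc5 and Cdca8, the Aurora kinases, Polo-like kinase 1 and their partners, were followed through single medulloblastoma cells. The 8 genes were chosen by name, and 8 of 8 were listed in both deposited files, which share 16056 gene names out of 19714 at P24-30 and 24858 at P12. Cells came from tumours of hGFAPcre;Ptchc/c mice at postnatal day 24 to 30 (P24-30) and at postnatal day 12 (P12), with 1 Drop-seq library per age. In these mice Cre recombinase, under a human GFAP promoter that is active in neural progenitors, acts on conditional alleles of Ptch, the receptor that restrains Sonic hedgehog signalling. Both libraries carry the same genotype, and there is no tumour-free or Cre-negative sample. The number of mice behind each library, and whether they were pooled, is not stated in the labels. Drop-seq encloses single cells with barcoded beads in droplets and counts 3′ ends of messenger RNA by molecular barcodes (UMIs). A transcript gives 1 tag whatever its length, so levels are UMI counts scaled by the total of the same cells (CPM), not divided by length.

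After filtering, 4789 cells with 12094028 UMIs remained in the P24-30 library and 5723 cells with 11873881 UMIs in the P12 library. The median cell had 2193 UMIs at P24-30 and 1805 UMIs at P12. All 13 of 13 markers of granule neuron progenitors and Sonic hedgehog tumours were detected in both libraries. Among them Atoh1, the progenitor transcription factor, stood at 81.3 CPM at P24-30 and 137 CPM at P12, and Gli1, a hedgehog target, at 96.7 CPM at P24-30 and 81.3 CPM at P12. With 1 library per age there is no replicate, so no difference was tested. Every interval below is an exact 95% interval for counting error alone, and spread between mice is not known. P24-30 columns carry names rather than barcodes, so barcodes shared between the libraries could not be counted.

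The proteins divide into a pair of machines that act at different places in mitosis. Aurora A, encoded by Aurka, works at centrosomes and spindle poles, is activated by the spindle protein TPX2, and with its cofactor BORA switches on PLK1, the kinase that drives mitotic entry, centrosome maturation and cytokinesis. Aurora B, encoded by Aurkb, is the enzyme of the chromosomal passenger complex, in which INCENP is the scaffold, survivin (Birc5) and borealin (Cdca8) place the complex on chromatin, and the whole corrects faulty attachments of chromosomes to the spindle before it moves to the midzone. Transcripts of such genes are known to build up late in the cell cycle and to be controlled through promoter elements that include the cell cycle homology region (CHR) and CCAAT boxes.

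On mm10, with GENCODE vM21, Aurka lies on the minus strand of chromosome 2 from 172356190 to 172370535, and Tpx2 on the plus strand of the same chromosome from 152847964 to 152895321. Bora occupies 99046222 to 99074540 on the plus strand of chromosome 14, and Plk1 occupies 122159439 to 122169873 on the plus strand of chromosome 7. Aurkb (69045647 to 69051664) and Birc5 (117849251 to 117855743) are both on the plus strand of chromosome 11. Incenp is on the minus strand of chromosome 19 from 9872296 to 9899551, and Cdca8 is on the minus strand of chromosome 4 from 124918465 to 124939311. A 3′ tag can be shared with a near copy of a gene: 7.61% of the 40-base words in the last 600 bases of Plk1 transcripts also occur in Plk-ps1, 4.75% of those of Birc5 in Gm48337, and 1.16% of those of Tpx2 in Dynlt1a or Gm10451. The remaining 5 genes shared none. Exons of Gm44985 overlap Plk1, and exons of 9930104L06Rik overlap Cdca8, on the opposite strand in both cases, and no label says whether the counting used strand. The values of Plk1, Birc5, Tpx2 and Cdca8 are uncertain to that extent.

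RefSeq promoter windows on GRCm38.p6, from 250 bases before to 50 bases after the annotated start, were at hand for 4 of the 8 genes. The 4 windows are printed because they were the ones available, not because these genes behave alike. Capitals mark the CHR letters TTTGAA or CTTGAA and the CCAAT box, which reads ATTGG where it lies on the other strand; in Cdca8 a CHR and such a box run into each other. The windows are chr2:172370521-172370820 (minus strand) for Aurka, chr7:122159185-122159484 (plus strand) for Plk1, chr4:124936868-124937167 (minus strand) for Cdca8 and chr11:117848987-117849286 (plus strand) for Birc5. Each covers sequence before the RefSeq start and the first transcribed bases, and the window of Cdca8 lies inside the longer span that GENCODE gives this gene.
Aurka: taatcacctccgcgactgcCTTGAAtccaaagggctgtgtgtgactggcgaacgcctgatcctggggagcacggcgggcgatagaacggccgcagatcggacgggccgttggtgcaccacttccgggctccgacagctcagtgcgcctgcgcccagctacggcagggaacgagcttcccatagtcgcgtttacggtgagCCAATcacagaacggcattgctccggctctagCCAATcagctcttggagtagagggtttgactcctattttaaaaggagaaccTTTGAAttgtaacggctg
Plk1: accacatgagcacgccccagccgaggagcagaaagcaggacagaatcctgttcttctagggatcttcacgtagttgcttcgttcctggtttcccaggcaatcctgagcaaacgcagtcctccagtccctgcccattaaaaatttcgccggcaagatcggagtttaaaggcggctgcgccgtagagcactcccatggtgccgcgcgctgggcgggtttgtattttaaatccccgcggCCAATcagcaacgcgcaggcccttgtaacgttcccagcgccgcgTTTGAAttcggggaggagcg
Cdca8: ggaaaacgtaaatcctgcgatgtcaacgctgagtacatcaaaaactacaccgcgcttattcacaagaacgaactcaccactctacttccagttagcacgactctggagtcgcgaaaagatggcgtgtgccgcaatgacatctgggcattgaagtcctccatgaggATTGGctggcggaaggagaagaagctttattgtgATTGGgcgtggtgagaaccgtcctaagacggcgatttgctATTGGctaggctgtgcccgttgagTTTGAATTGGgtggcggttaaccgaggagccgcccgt
Birc5: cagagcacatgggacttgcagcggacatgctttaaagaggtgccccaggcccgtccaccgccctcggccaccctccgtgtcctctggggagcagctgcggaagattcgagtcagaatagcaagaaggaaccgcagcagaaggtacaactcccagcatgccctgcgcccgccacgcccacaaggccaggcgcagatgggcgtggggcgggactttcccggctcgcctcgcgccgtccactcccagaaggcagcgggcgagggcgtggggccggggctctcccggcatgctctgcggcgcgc

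Positions are counted from 1 at the first transcribed base in RefSeq, with negative numbers before it. TTTGAA was found at 33 to 38 in Aurka, at 31 to 36 in Plk1 and at 14 to 19 in Cdca8, each time on the strand of the gene. CCAAT boxes lay upstream of it, at -51 to -47 and -19 to -15 in Aurka and at -14 to -10 in Plk1. Cdca8 held 4 on the opposite strand, at -85 to -81, -51 to -47, -11 to -7 and 19 to 23. Aurka also held CTTGAA at -231 to -226, and the Birc5 window held none of these letters, nor did any of the 4 windows hold TTCGAA. On both strands, TTTGAA occurred in 17.9% of all 32851 RefSeq windows of the same length, CTTGAA in 13.2%, TTCGAA in 1.56% and CCAAT in 37.4%. Among windows of the 50-gene mitotic list used below, 32 of 49 held TTTGAA and 37 of 49 held CCAAT. A match describes letters and is not evidence that a factor binds there.

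At P24-30 the columns of the file carry 16 tags, G1 to G16, which no label explains and which are names of groups of cells, not cell cycle phases. They may have been made from these same cells, so levels across them are a description. Tags were placed by a list of 50 genes of G2 and M phase that holds none of the 8 members (the mitotic list). G16 ranked first at 32252 CPM of that list, G1 next at 25831 CPM and G2 after it at 13974 CPM. Replication histones set G1 and G2 apart from G16, with 10369 CPM in G1, 12265 CPM in G2 and 1374 CPM in G16. G3 had the highest summed level of 45 G1/S and S phase genes, at 9326 CPM, with 1681 CPM of histones. Incenp itself was among the 10 leading genes of G1.

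The 8 genes together reached 3014 CPM in the 417 cells of G16, 2594 CPM in the 353 cells of G1 and 1319.6 CPM in the 892 cells of G2. They stood at 438 CPM in G3 and 345 CPM in G6, and in the other tags with at least 50 cells between 73.2 CPM (G7) and 589 CPM (G10, 73 cells). The order G16, G1, G2 held without overlap of the counting intervals, while G10 and G3 did overlap. G16, G1 and G2 held 33.8%, 26.3% and 29.5% of all UMIs of the 8 genes. The median cell had UMIs of 5 of the 8 genes in G16, of 4 in G1 and of 2 in G2, and UMIs of all 8 were present in 1.68% of G16 cells and 2.27% of G1 cells.

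Aurka, the spindle pole kinase, was at 161 CPM in G16, 135 CPM in G1, 41.0 CPM in G2 and 3.13 CPM in G3. Tpx2, its activator, was at 779 CPM in G16, 568 CPM in G1, 224 CPM in G2 and 65.7 CPM in G3. Plk1 was at 184 CPM in G16, 140 CPM in G1, 39.5 CPM in G2 and 14.1 CPM in G3. These 3 genes share a steep step between G1 and G2, as does Bora. Bora, the cofactor through which Aurora A activates PLK1, was at 232 CPM in G16, 124 CPM in G1, 42.5 CPM in G2 and 14.1 CPM in G3. Its G10 value, 232 CPM, came from 15 UMIs in 5 cells, 6 of them in 1 cell, and was 141 CPM (64.3 to 267) without that cell.

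Aurkb, the passenger kinase, was at 149 CPM in G16, 159 CPM in G1, 117 CPM in G2 and 37.6 CPM in G3. Incenp, the scaffold, was at 469 CPM in G16, 579.7 CPM in G1, 289 CPM in G2 and 131 CPM in G3. Incenp and Aurkb were the only 2 of the 8 genes with their highest tag level in G1, and for Aurkb the intervals of G1 and G16 overlapped. Birc5, the inhibitor of apoptosis family member that anchors the complex, was at 571 CPM in G16, 446 CPM in G1, 320.0 CPM in G2 and 106 CPM in G3. Cdca8 was at 468 CPM in G16, 443 CPM in G1, 247 CPM in G2 and 65.7 CPM in G3, with G16 and G1 overlapping.

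**Figure D1:**
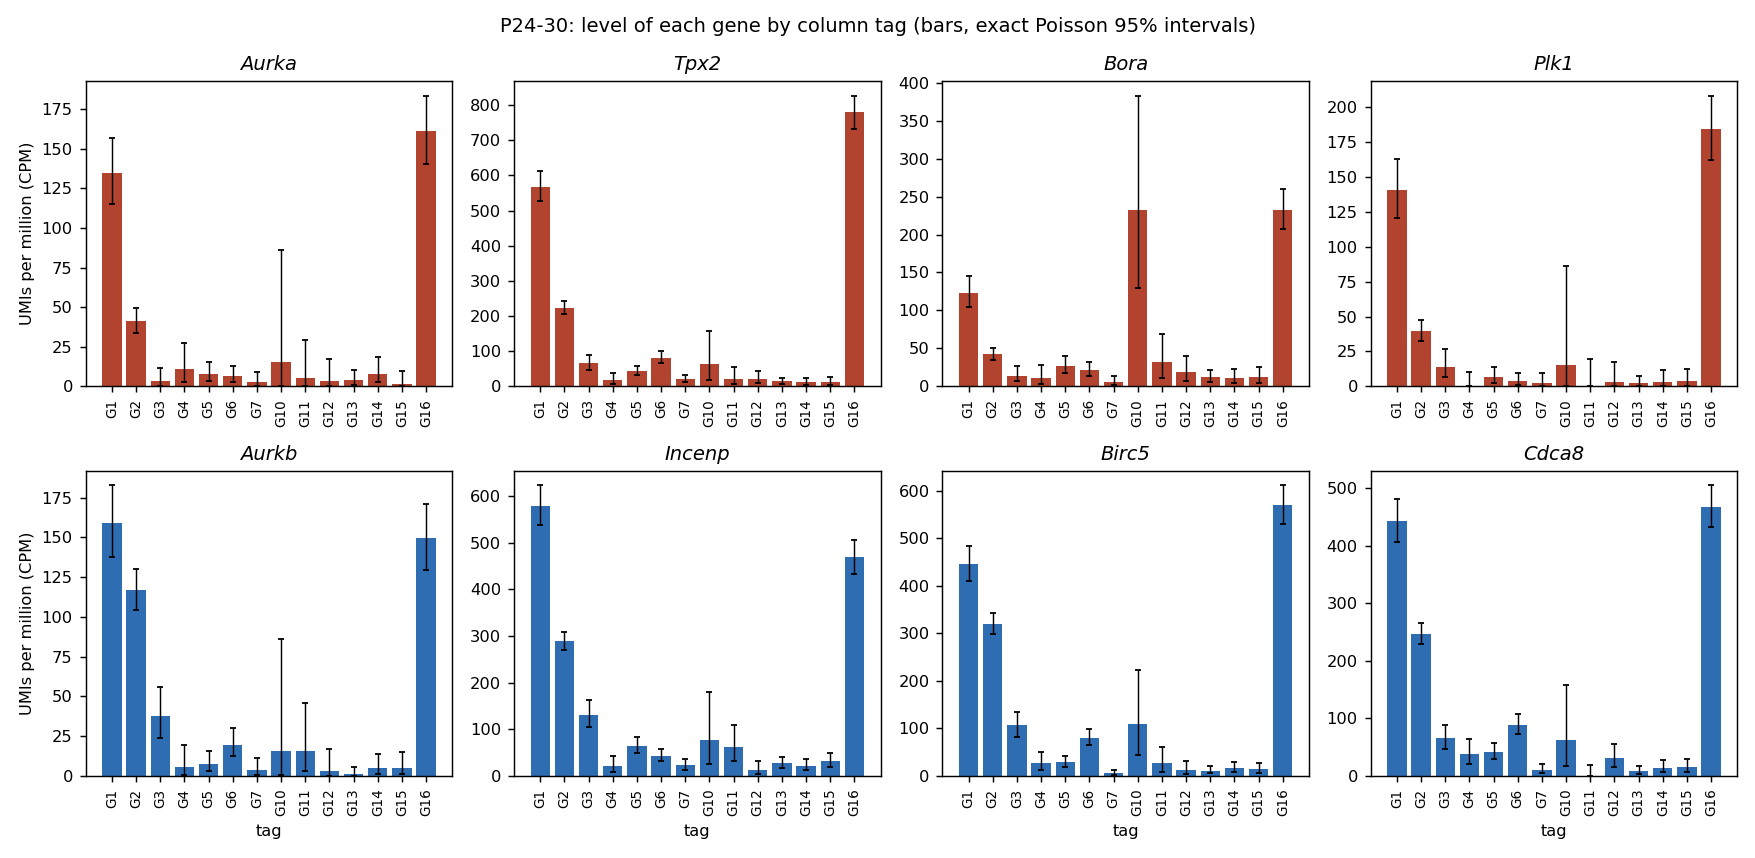
Level of each gene (UMI counts scaled by the total, CPM; bars) in each P24-30 tag with at least 50 cells, with exact Poisson 95% intervals; Aurora A and Plk1 genes are red, passenger complex genes blue. Levels are highest in G16 or G1 for each gene, G2 stays closer to G1 in the blue row, and the wide G10 interval of Bora rests on 15 UMIs.

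Between the pair of tags highest in the mitotic list the genes did not keep one ratio. Over G1, G16 was 1.88-fold (1.55 to 2.30) for Bora, 1.37-fold (1.25 to 1.51) for Tpx2, 1.31-fold (1.08 to 1.60) for Plk1 and 1.28-fold (1.15 to 1.43) for Birc5. Incenp stood at 0.810-fold (0.727 to 0.902), and for Aurka (1.19, 0.973 to 1.47), Aurkb (0.939, 0.769 to 1.15) and Cdca8 (1.06, 0.940 to 1.18) the interval included 1. Of the 8 genes, 0 were at least 2-fold higher and 0 at least 2-fold lower, against 5.42% higher and 6.72% lower among all 11080 genes compared. The mitotic list was 1.25-fold (1.23 to 1.27) in G16 over G1.

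G16 was set against all other tags together. Levels were 6.42-fold (5.52 to 7.47) for Bora, 6.36-fold (5.36 to 7.53) for Plk1, 5.50-fold (4.61 to 6.55) for Aurka and 5.38-fold (4.97 to 5.82) for Tpx2. Passenger genes were at 3.66-fold (3.36 to 3.99) for Birc5, 3.42-fold (3.11 to 3.76) for Cdca8, 2.78-fold (2.54 to 3.05) for Incenp and 2.71-fold (2.30 to 3.19) for Aurkb. The ratios of the Aurora A and Plk1 genes and of the passenger genes did not overlap. Promoter windows were at hand for 4 of the 8 genes, of which Birc5 alone lacked TTTGAA. Whether these letters bear on the ratios was not tested. In G16 over the other tags 8 of 8 genes were at least 2-fold higher, against 2.49% of all genes. The median log2 ratio was 2.15 for the 8 and -0.15 for all genes. Their sum was 3.99-fold (3.84 to 4.14) and the mitotic list 3.50-fold (3.47 to 3.54). With the quintile of cells highest in the mitotic list in place of G16, the ratios widened to 13.48 (10.9 to 16.9) for Plk1 and 12.05 (9.72 to 15.04) for Aurka, against 3.86 (3.35 to 4.46) for Aurkb.

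A UMI can also come from free RNA, so the share of cells holding a UMI of any of the 8 genes was set beside that in microglia-like cells, with all cells thinned to 500 UMIs. At P24-30 it was 77.9% (73.6 to 81.8) in G16 (median 2965 UMIs), 72.8% (67.8 to 77.4) in G1 (median 3269 UMIs) and 47.8% (44.4 to 51.1) in G2 (median 2702.5 UMIs). Tag G8 (35 cells, median 2002 UMIs), with 10 of 10 microglia markers raised, had 8.57% (1.80 to 23.1). Without thinning the shares were 99.5% in G16, 99.4% in G1, 92.3% in G2 and 14.3% in G8. The thinned shares of G3, 25.3% (19.7 to 31.6), and G6, 16.4% (13.2 to 20.2), overlapped that of G8, although their summed levels lay above its 58.7 CPM (19.1 to 137). G7, at 3.29%, and G13, at 3.37%, were at or below it and are read as background. Microglia markers came to 35 UMIs in G16, 232 UMIs in G1 and 2409 UMIs in G8.

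P12 cells carry no tags and were clustered for this work on 2000 variable genes with the 8 members left out, and clusters were named from marker lists. Because genes that follow the members were among the clustered ones, levels across clusters are again a description. The cycling states were G1/S-like (710 cells, led by Ung and Mcm genes) and S-phase-like cells (814 cells, led by Ccne2, Lig1 and Tcf19). With them came a histone-led cluster (689 cells) and a pair of mitotic-like clusters, A (833 cells) and B (419 cells). They are listed in an assumed cycle order, which was not computed. Replication histones were at 4195 CPM in S-phase-like and 4713 CPM in histone-led cells, and the mitotic list at 14961 CPM and 21979 CPM. The histone-led cluster also had haemoglobin genes among its 10 leading genes, with 551 UMIs of the erythroid list, and its part in the levels there was not tested. Outside the cycle lay neuron-like (687 cells), Eln-led (665 cells) and Hes1-containing cells (605 cells, with choroid plexus genes such as Ttr among their leading genes). There were also oligodendrocyte-lineage-like (107 cells), microglia-like (77 cells), astrocyte-like (39 cells) and low-depth (78 cells) clusters. The median UMI count ran from 1619.5 in G1/S-like cells to 2562 in mitotic-like A cells, and was 881.5 in the low-depth cluster.

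Together the 8 genes were at 296 CPM in G1/S-like, 1547 CPM in S-phase-like, 2347 CPM in histone-led, 3999 CPM in mitotic-like A and 3368 CPM in mitotic-like B cells. The intervals of these 5 states did not overlap. Outside the cycle the sum was 129 CPM in neuron-like, 189 CPM in Hes1-containing, 276 CPM in Eln-led, 374 CPM in astrocyte-like and 479 CPM in oligodendrocyte-lineage-like cells. The low-depth cluster, unnamed, had 1756 CPM. Mitotic-like A cells held 46.7% of all UMIs of the 8 genes in the library and 54.3% of those of Bora, 55.0% of those of Aurka and 60.9% of those of Plk1.

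Aurka was at 10.3 CPM in G1/S-like, 43.0 CPM in S-phase-like, 104 CPM in histone-led, 224 CPM in mitotic-like A and 173 CPM in mitotic-like B cells. Tpx2 was at 46.7, 289.6, 416, 969 and 892 CPM in the same 5 states. Plk1 was at 2.37, 32.3, 76.1, 231 and 176 CPM in them. Plk1 thus had the lowest level of the 8 genes in G1/S-like cells, from 3 UMIs. Bora was at 19.8 CPM in G1/S-like and 31.8 CPM in S-phase-like cells, then at 67.3 CPM in histone-led, 215 CPM in mitotic-like A and 195 CPM in mitotic-like B cells. The intervals of Bora in G1/S-like and S-phase-like cells overlap (12.8 to 29.2 CPM and 24.5 to 40.5 CPM).

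Aurkb was at 15.8 CPM in G1/S-like, 135 CPM in S-phase-like, 216 CPM in histone-led, 228 CPM in mitotic-like A and 163 CPM in mitotic-like B cells. Its histone-led and mitotic-like A levels overlapped. Incenp was at 84.6, 425, 567, 752 and 518 CPM in the same 5 states, and its histone-led and mitotic-like B levels overlapped. Birc5 was at 53.0, 312, 474, 679 and 618 CPM in them, and Cdca8 at 63.3, 278, 426, 700.3 and 633 CPM. Mitotic-like A was the highest cluster for 8 of 8 genes, and in B over A the ratio ran from 0.688 (0.621 to 0.762) for Incenp and 0.713 (0.592 to 0.856) for Aurkb up to 0.920 (0.849 to 0.997) for Tpx2. None of the 8 was 2-fold lower in B, against 5.84% of all 11564 genes.

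**Figure D2:**
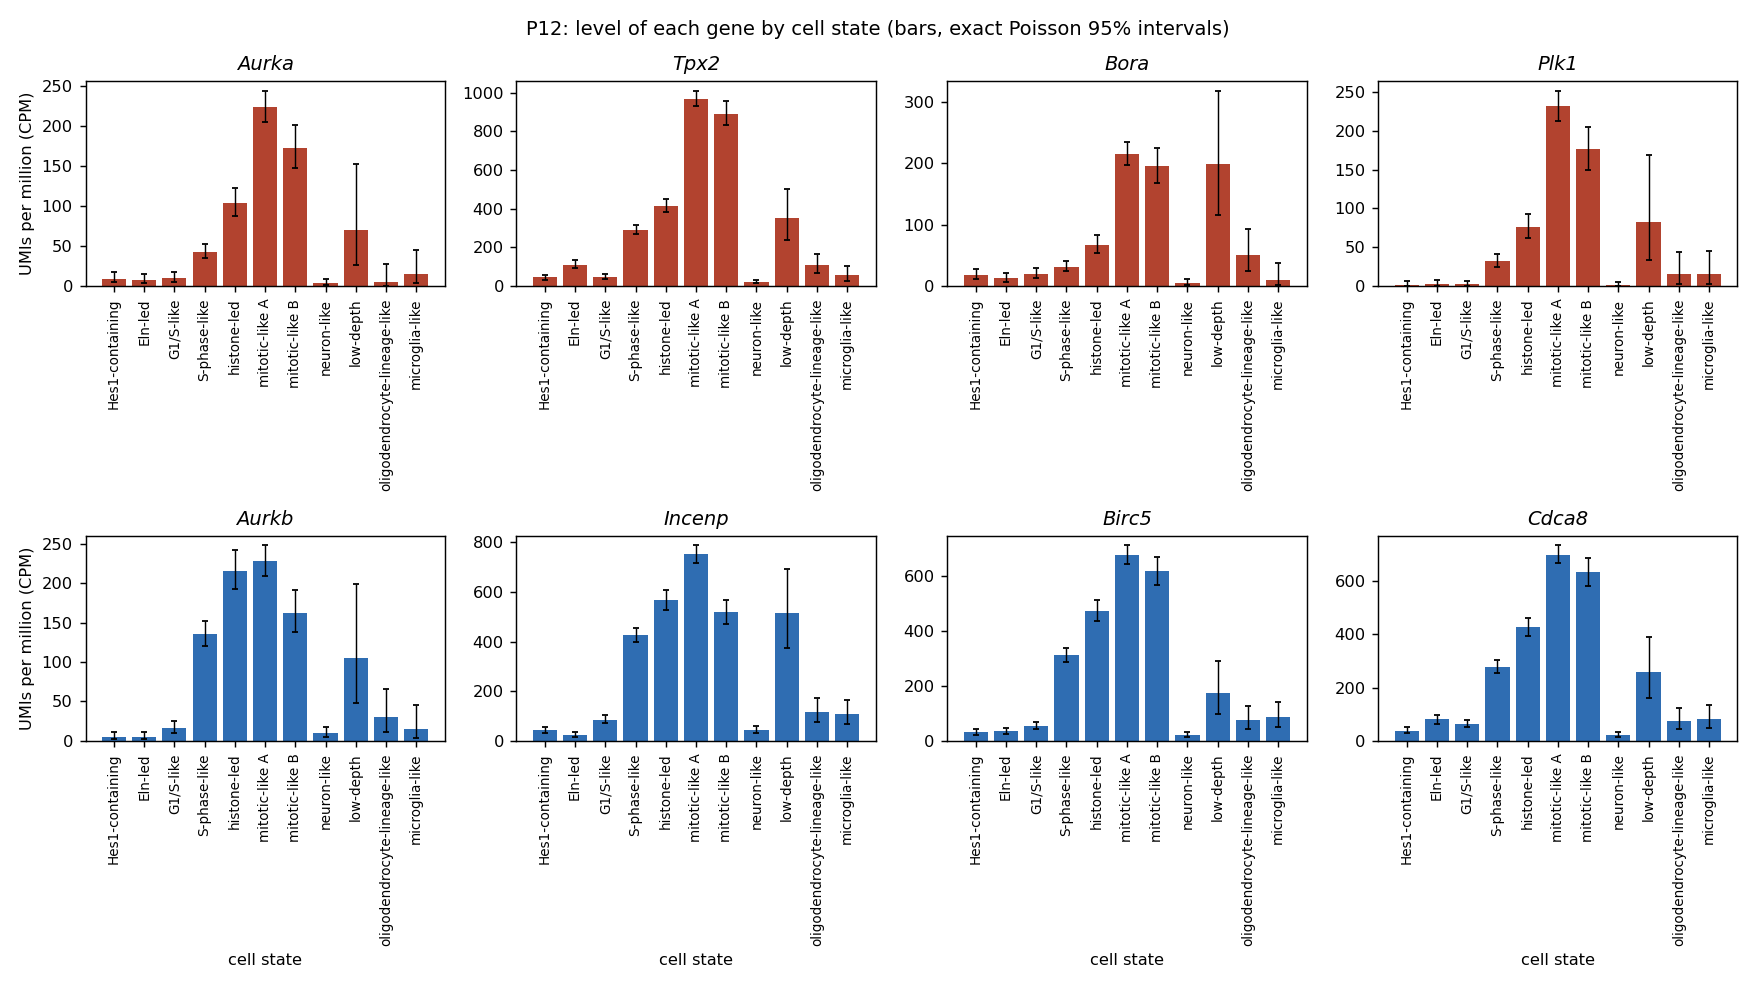
Level of each gene (CPM; bars) in each P12 cluster with at least 50 cells, with exact Poisson 95% intervals; Aurora A and Plk1 genes are red, passenger complex genes blue. Passenger genes already stand at 135 to 425 CPM in S-phase-like cells, as does Tpx2 at 289.6 CPM, while Aurka, Bora and Plk1 stay at or below 43.0 CPM there.

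Mitotic-like cells A and B together were set against all other P12 cells. The ratio was 9.62 (8.19 to 11.3) for Plk1, 7.17 (6.199 to 8.32) for Bora, 6.47 (5.62 to 7.47) for Aurka and 5.45 (5.12 to 5.80) for Tpx2. It was 4.03 (3.77 to 4.31) for Cdca8, 3.78 (3.53 to 4.04) for Birc5, 2.99 (2.81 to 3.18) for Incenp and 2.84 (2.54 to 3.16) for Aurkb. As in the P24-30 tags, the 4 genes of the Aurora A and Plk1 set had the higher ratios. All 8 of 8 were at least 2-fold higher, against 2.18% of all genes, with a median log2 ratio of 2.23 for the 8 and -0.13 for all genes. The sum of the 8 was 4.22-fold (4.10 to 4.34) and the mitotic list 3.52-fold (3.49 to 3.55).

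After thinning to 500 UMIs, the share of cells with a UMI of any of the 8 genes was 82.7% (79.97 to 85.2) in mitotic-like A, 75.2% (70.8 to 79.2) in mitotic-like B, 66.2% (62.5 to 69.7) in histone-led and 51.6% (48.1 to 55.1) in S-phase-like cells. Microglia-like cells (median 2091 UMIs), which carried 10 of 10 raised microglia markers, had 10.4% (4.59 to 19.4), and 31.2% without thinning. That share was 13.4% in G1/S-like, 9.77% in Eln-led, 7.77% in Hes1-containing and 5.24% in neuron-like cells. Those 4 values lie within or near the microglia-like interval and are not told from background by this measure. They differ among themselves: the intervals of G1/S-like (10.96 to 16.1) and neuron-like cells (3.70 to 7.18) did not overlap. Their summed levels, 296 CPM (267 to 327) and 129 CPM (109 to 152), did not overlap either. Background and a low level of expression were not told apart there. Microglia-like cells held 76 UMIs of the 8 genes, 390 CPM (307 to 488), and 24 of the 77 cells carried them. At most, a cell of this cluster held UMIs of 5 of the 8 genes, and doublets were not called. Whether these UMIs are free RNA was not tested. The summed levels of neuron-like and Hes1-containing cells (189 CPM, 164 to 217) lay below the microglia-like level without overlap. The microglia-like level is therefore not the lowest in this library. Microglia markers in mitotic-like A and B cells came to 38 and 20 UMIs.

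In tags and clusters rich in S phase and histone transcripts, passenger genes stood closer to their mitotic level than the Aurora A and Plk1 genes did. At P24-30, G2, with S phase genes at 8457 CPM and replication histones at 12265 CPM, was set against G1 and G16 together. G1 is itself rich in histones, at 10369 CPM, so this is not a clean contrast of histone-rich with mitotic cells. The ratio was 0.759 (0.653 to 0.881) for Aurkb, 0.626 (0.574 to 0.682) for Birc5, 0.554 (0.507 to 0.605) for Incenp and 0.542 (0.492 to 0.596) for Cdca8. It was 0.330 (0.300 to 0.362) for Tpx2, 0.276 (0.222 to 0.341) for Aurka, 0.242 (0.194 to 0.299) for Plk1 and 0.235 (0.190 to 0.288) for Bora. So 4 of 8 genes were at least 2-fold lower in G2, against 4.21% of all genes, and they were the 4 that act with Aurora A and Plk1. The mitotic list as a whole was also more than 2-fold lower, at 0.478 (0.473 to 0.484), and the interval of Cdca8 included the cut.

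At P12, S-phase-like cells over mitotic-like cells gave the same division for Aurkb (0.645, 0.559 to 0.742), Incenp (0.618, 0.571 to 0.669), Birc5 (0.472, 0.431 to 0.515) and Cdca8 (0.408, 0.371 to 0.447). Tpx2 stood at 0.305 (0.279 to 0.334), Aurka at 0.205 (0.163 to 0.257), Bora at 0.152 (0.116 to 0.196) and Plk1 at 0.150 (0.114 to 0.193). Here 6 of 8 genes were at least 2-fold lower, against 3.96% of all genes. The mitotic list as a whole stood at 0.412 (0.407 to 0.417), close to Cdca8. In histone-led over mitotic-like cells, Aurkb stood at its mitotic level, at 1.03 (0.896 to 1.18), and Incenp stood at 0.825 (0.760 to 0.896). Bora, at 0.321 (0.256 to 0.400), and Plk1, at 0.352 (0.284 to 0.433), were the lowest, and 4 of 8 genes were at least 2-fold lower, against 4.76% of all genes. The mitotic list stood at 0.605 (0.598 to 0.613) in histone-led over mitotic-like cells.

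**Figure D3:**
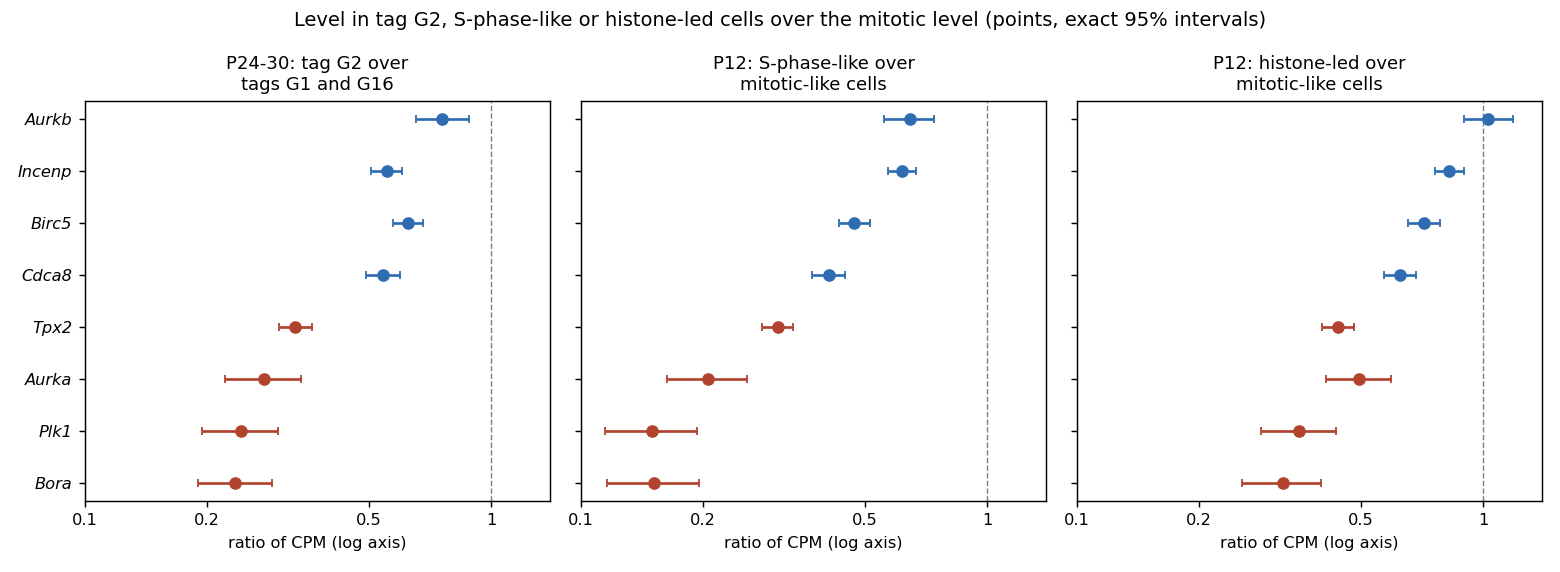
Ratio of CPM (log axis; points, exact 95% intervals) of each gene in P24-30 tag G2 over tags G1 and G16, in P12 S-phase-like over mitotic-like cells, and in P12 histone-led over mitotic-like cells; passenger complex genes are blue, Aurora A and Plk1 genes red. Blue points lie right of the red ones in each panel, from 0.408 to 1.03 against 0.150 to 0.496.

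By the share of cells with a member UMI, G1/S-like cells were not told from microglia-like cells. Whether the UMIs of microglia-like cells are free RNA was not tested. The ratios of S-phase-like to G1/S-like cells may set the S-phase-like level against background. These ratios are not read as a change between a pair of expressing states. The ratio was 13.6 (4.46 to 67.7) for Plk1, from 66 against 3 UMIs, 8.57 (5.44 to 14.2) for Aurkb and 6.21 (4.74 to 8.25) for Tpx2. Birc5 was at 5.89 (4.57 to 7.69), Incenp at 5.02 (4.10 to 6.19), Cdca8 at 4.39 (3.47 to 5.62) and Aurka at 4.19 (2.33 to 8.17). With Bora at 1.61, 7 of 8 genes were at least 2-fold higher in S-phase-like cells, against 4.96% of all genes, and the mitotic list was 2.50-fold (2.44 to 2.56). At P24-30, G3 and G2 are both rich in S phase genes and differ in histones and in the mitotic list, which was 0.540-fold (0.524 to 0.556) in G3 over G2. Among the members that ratio ran from 0.0763 (0.00913 to 0.282) for Aurka, from 2 against 112 UMIs, to 0.455 (0.359 to 0.570) for Incenp. There 8 of 8 genes were at least 2-fold lower in G3, against 8.11% of all genes. Bora and Plk1 had 9 UMIs each in G3, and the thinned share of G3 cells with a member UMI overlapped that of G8.

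The share of the 4 passenger genes in all UMIs of the 8 genes differed among these states. At P24-30 it was 55.0% (53.4 to 56.5) in G16, 62.7% (61.0 to 64.4) in G1, 73.7% (72.3 to 75.2) in G2 and 77.9% (72.5 to 82.6) in G3. At P12 it was 73.3% (68.5 to 77.7) in G1/S-like, 74.4% (72.8 to 75.9) in S-phase-like, 71.7% (70.1 to 73.3) in histone-led, 59.0% (58.0 to 60.0) in mitotic-like A and 57.4% (55.6 to 59.1) in mitotic-like B cells. The intervals of S-phase-like and histone-led cells lay above those of both mitotic-like clusters, as those of G2 and G3 lay above G1 and G16. A high share was not particular to S phase states: it was 76.2% (68.4 to 82.9) in neuron-like and 75% (63.7 to 84.2) in microglia-like cells, against 51.4% (45.8 to 57.1) in Eln-led cells. By the share of cells with a member UMI, neuron-like, Eln-led and G1/S-like cells were not told from microglia-like cells, the measure used for background. In summed level, neuron-like cells (129 CPM, 109 to 152) lay below microglia-like cells (390 CPM, 307 to 488). The passenger shares of Eln-led and microglia-like cells did not overlap. The share in G2 exceeded that in G16 by 18.7 percentage points, and by 17.5 points when Tpx2 and Incenp were left out. The corresponding P12 difference, S-phase-like minus mitotic-like cells, was 15.8 points, and 16.1 points without them.

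**Figure D4:**
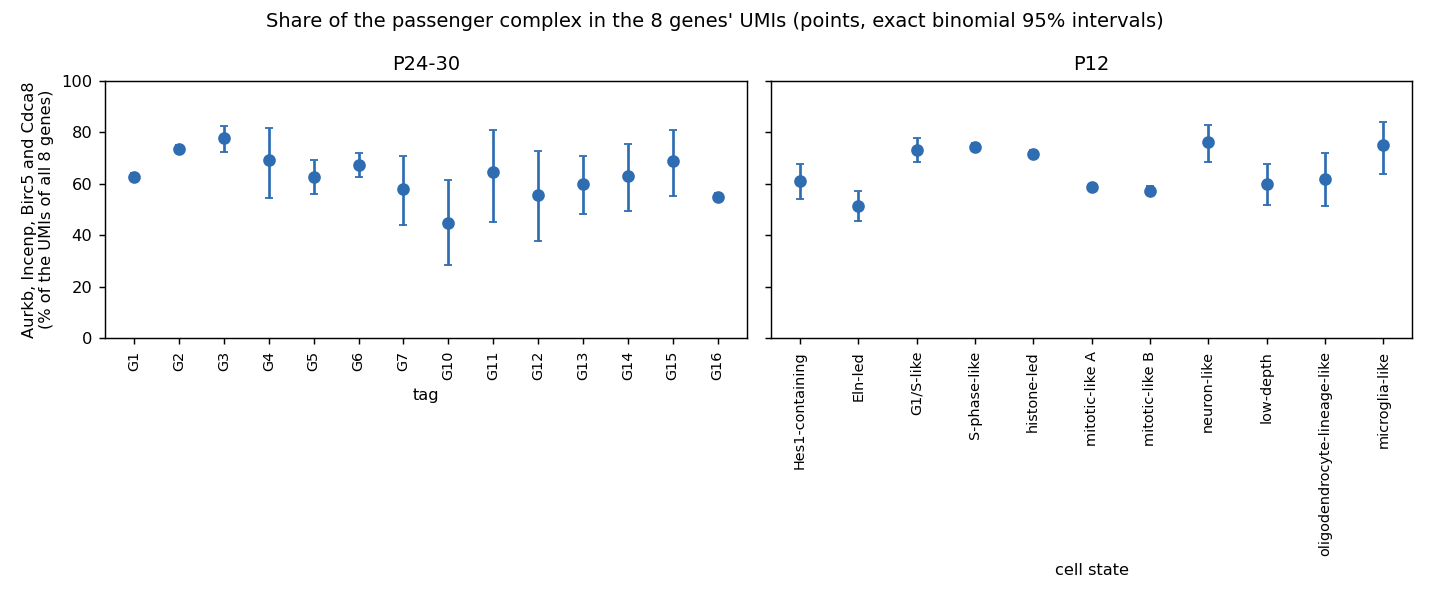
Share of Aurkb, Incenp, Birc5 and Cdca8 in the UMIs of all 8 genes (percent; points, exact binomial 95% intervals) in each P24-30 tag and each P12 cluster with at least 50 cells. The share is 55.0% in G16 and 57.4% to 59.0% in mitotic-like A and B cells, below the 73.7% of G2 and the 74.4% of S-phase-like cells, and intervals are wide where few UMIs were counted.

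Ranking cells of each library by the share of their UMIs in the mitotic list, and cutting them into quintiles, gives a scale that uses neither tags nor clusters. The sum of the 8 genes from quintile 1, the lowest, to quintile 5 was 67.9, 91.8, 299.8, 1126 and 2671 CPM at P24-30. It was 104, 171, 889.8, 2316 and 3998 CPM at P12. The quintiles were cut within each library and cover unlike mitotic-list shares, so that quintile 3 spans 0.394% to 0.792% of UMIs at P24-30 and 0.640% to 1.51% at P12, and quintile 5 spans 1.795% to 5.69% at P24-30 and 2.84% to 6.84% at P12. The sums of one quintile at both ages are therefore not at a matched mitotic level, and no difference between ages is read from them. Aurkb was at 97.1 CPM in quintile 4 and 148 CPM in quintile 5 at P24-30, and at 180.3 CPM and 224 CPM in them at P12. Plk1 was at 30.2 CPM in quintile 4 and 152 CPM in quintile 5 at P24-30, and at 68.7 CPM and 231 CPM in them at P12. In both libraries quintiles 4 and 5 lay further apart for Plk1 than for Aurkb. In each library quintile 5 held the highest level of 8 of 8 genes. These are ranges of a score and not cell types.

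**Figure D5:**
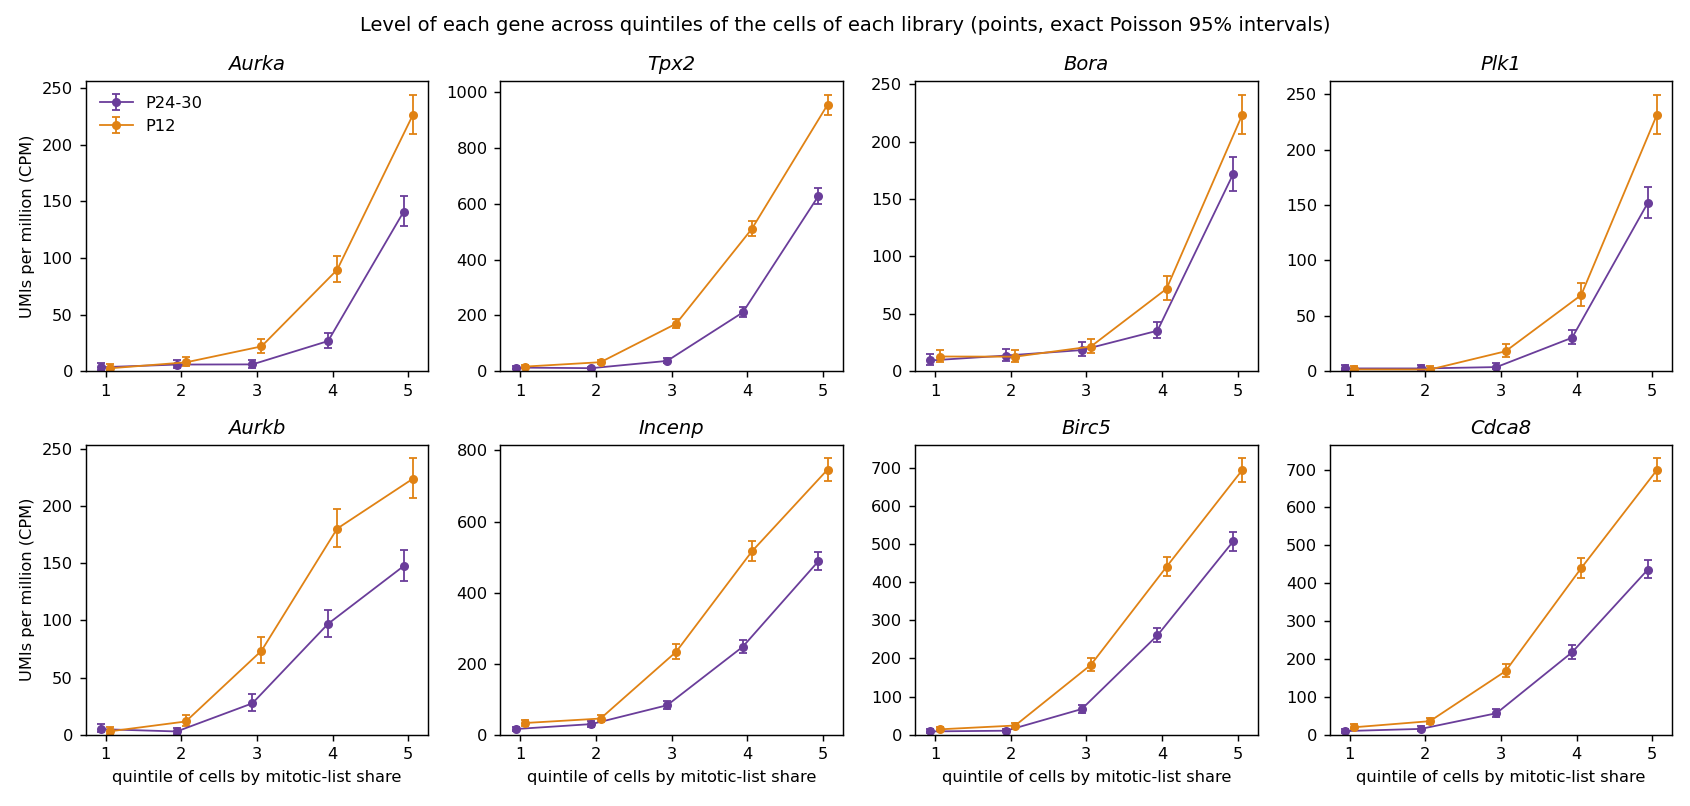
Level of each gene (CPM; points, exact Poisson 95% intervals) across quintiles of the cells of each library ranked by their share of mitotic-list UMIs, with P24-30 in purple and P12 in orange. Both lines peak in quintile 5 for each gene, with Plk1 at 152 CPM there at P24-30 and 231 CPM at P12; quintile 5 starts at a mitotic-list share of 1.795% at P24-30 and 2.84% at P12, so the lines are not at matched shares.

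Between the ages, each of the 8 genes had a lower level in the P24-30 library than in the P12 library. Aurka was at 44.2 CPM at P24-30 and 81.8 CPM at P12, Plk1 at 46.6 CPM at P24-30 and 76.4 CPM at P12, and Tpx2 at 217 CPM at P24-30 and 389.9 CPM at P12. Bora, at 58.5 CPM at P24-30 and 79.5 CPM at P12, had the ratio nearest to 1, 0.735 (0.666 to 0.811). Aurkb was at 65.7 CPM at P24-30 and 112 CPM at P12, and Incenp at 203 CPM at P24-30 and 357 CPM at P12. Birc5 was at 203 CPM at P24-30 and 311 CPM at P12, and Cdca8 at 174 CPM at P24-30 and 312 CPM at P12. The sum was 1012 CPM (994 to 1029.7) at P24-30 and 1719.8 CPM (1696 to 1744) at P12, a ratio of 0.588 (0.575 to 0.602).

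The median gene was itself lower in the P24-30 library, at 0.833-fold (log2 -0.26, over 11774 genes with at least 50 UMIs in all). Relative to that gene the members ran from 0.649 (0.583 to 0.722) for Aurka to 0.883 (0.7995 to 0.974) for Bora, with Birc5 at 0.783 (0.744 to 0.824) and Plk1 at 0.733 (0.659 to 0.815). Tpx2 (0.6674, 0.636 to 0.700), Cdca8 (0.670, 0.635 to 0.707) and Incenp (0.681, 0.648 to 0.716) fell just short of 1.5-fold lower. The intervals of these genes, of Aurka, of Plk1 and of Aurkb (0.704, 0.644 to 0.770) all include that cut. By point value only Aurka, 1 of 8, was at least 1.5-fold lower, against 11.2% of all genes, a count that depends on the cut. None, 0 of 8, were at least 1.5-fold higher, against 18.9%. The count of 1 lower gene is near the background, whereas 8 of 8 lay below the median gene, where 50% of all genes lie. The median log2 ratio was -0.53 for the 8. Fewer cells in mitosis and less RNA of these genes per mitotic cell cannot be told apart from a library total. The median mitochondrial share ran from 2.53% to 4.38% over the tags other than G9 (11 cells, 12.8%) and from 6.63% to 13.3% over the P12 clusters. Apart from G9, every tag thus lay below every P12 cluster, and the part of this share in the ratios was not tested. Age also cannot be told apart from library, depth or the different processing of the files.

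Set against mitotic RNA, the 8 genes gave 85.6 UMIs per 1000 UMIs of the mitotic list at P24-30 and 97.8 at P12, a ratio of 0.875 (0.855 to 0.895). That direction turned when list genes whose transcript ends share sequence with other genes were left out, to 1.09 (1.07 to 1.12), and to 1.08 (1.04 to 1.11) when such members were left out too. The list itself was 0.672-fold (0.668 to 0.677) at P24-30 over P12, and 0.538-fold (0.532 to 0.543) without the sharing genes. No direction is therefore drawn for the members relative to mitotic RNA. The passenger set and the Aurora A and Plk1 set had nearly one ratio between the ages, 0.591 (0.575 to 0.608) and 0.583 (0.562 to 0.606).

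For each member, the genes most like it were those with the highest mean of the Pearson correlations of log2(CPM + 10) over 14 tags and over 11 P12 clusters, among 9773 genes. Points of a library share its depth and its clustering genes, so the coefficients only describe. For Aurka they were Prr11, Kif22 and Plk1 (0.961, 0.959 and 0.958), and for Plk1 they were Cenpl, Prr11 and Kif2c (0.979, 0.972 and 0.971). Tpx2 was nearest to Ckap2l, Ect2 and Ccna2 (0.974, 0.973 and 0.973), and Bora to Troap, Depdc1a and Smtn (0.963, 0.939 and 0.937). Bora was also the member least like the others, at 0.761 with Aurkb and at most 0.852, with Plk1. The points for Bora include G10, with 15 UMIs (232 CPM), and the low-depth cluster, with 17 UMIs (199 CPM). Its coefficients were not recomputed without them. Aurkb was nearest to Spc25, Ska1 and Ncapg (0.985, 0.982 and 0.974), and Incenp to Aurkb, Top2a and Ankle1 (0.974, 0.971 and 0.971). Birc5 was nearest to Ccna2, Ckap2l and Bub1 (0.979, 0.975 and 0.971), and Cdca8 to Tpx2, Ect2 and Ccna2 (0.963, 0.962 and 0.961). The sum of the 8 was most like Ccna2, Ckap2l, Kif4, Mki67 and Racgap1, from 0.988 down to 0.979.

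Other genes of the same pathways were counted from chosen lists, some of whose genes also belong to the mitotic list that placed the tags. Among regulators and effectors of the passenger complex, 8 of 10 were at least 2-fold higher in G16 over the other tags and 9 of 10 in mitotic-like over other P12 cells, against 2.49% and 2.18% of all genes. Outside the mitotic list these were 3 of 5 and 4 of 5, among them Kif20a, the kinesin that carries the complex to the midzone, at 4.98-fold at P24-30 and 5.62-fold at P12. Gsg2, the haspin kinase whose histone mark recruits the complex, was at 1.78-fold at P24-30 and 2.42-fold at P12. Cdca5, the cohesin protector sororin, was at 1.49-fold and 1.87-fold.

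Among substrates and regulators of PLK1, 10 of 14 were at least 2-fold higher in G16 and 11 of 14 in P12 mitotic-like cells, and outside the mitotic list 5 of 9 and 6 of 9. Ccnb1, the cyclin of CDK1, was at 8.42-fold at P24-30 and 11.03-fold at P12, and Cdc25c, a phosphatase that activates CDK1, at 7.15-fold and 8.13-fold. Both belong to the mitotic list that ranked the tags and helped name the clusters, so their ratios are not independent of it. The CDK1 inhibitory kinases, which PLK1 opposes, were not among them: Wee1 was at 1.14-fold in G16 and 1.49-fold at P12, and Pkmyt1 at 0.599-fold and 0.918-fold. Of the degradation genes of the anaphase-promoting complex, 4 of 4 were higher in G16 and 3 of 3 at P12. Outside the mitotic list these were 2 of 2 and 1 of 1. Ube2s, with 46 UMIs at P12, was below the limit of 50 UMIs and was not compared there. Cdc20, the activator of the complex and a gene of the mitotic list, was the highest, at 9.56-fold and 13.02-fold. Aurora A partners divided otherwise, since 3 of 8 were at least 2-fold higher in each library and those 3, Tacc3, Ckap5 and Hmmr, were all in the mitotic list. Mycn, the transcription factor that Aurora A protects from degradation, was at 0.696-fold in G16 and 0.937-fold in P12 mitotic-like cells. Of the paralogs, Plk4, the centriole kinase, was at 1.35-fold and 1.80-fold, Plk3 at 0.342-fold and 0.636-fold, and Plk2 and Plk5 had fewer than 50 UMIs in each library.

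Between ages, relative to the median gene, 4 of 8 Aurora A partners were at least 1.5-fold lower at P24-30, against 11.2% of all genes. They were Hmmr (0.458, 0.436 to 0.482), whose transcript ends share sequence with other genes, Ckap5 (0.502, 0.475 to 0.531), Cep192 (0.575, 0.460 to 0.716) and Mycn (0.663, 0.627 to 0.700). Among passenger regulators 3 of 10 were that much lower, Bub1 at 0.517 (0.477 to 0.561), Sgol1 at 0.571 (0.528 to 0.617) and Kif23 at 0.624 (0.583 to 0.668). Among PLK1 substrates 4 of 14 were lower and 1 higher, against 11.2% lower and 18.9% higher among all genes. Wee1, the kinase that holds CDK1 inactive until PLK1 marks it for destruction, was the lowest, at 8.43 CPM at P24-30 and 35.3 CPM at P12, 0.287 relative to the median gene (0.229 to 0.357). Foxm1, an activator of mitotic genes, was at 29.7 CPM at P24-30 and 19.96 CPM at P12 (1.79, 1.51 to 2.11), and its transcript ends share sequence with other genes. Among 4 genes of anaphase-promoting complex degradation 1 was lower and 1 higher, against the same shares of all genes. Cdc20, an activator of that complex, was at 197 CPM at P24-30 and 370 CPM at P12 (0.639, 0.607 to 0.671), and its transcript ends share sequence with other genes. Ube2s, a ubiquitin-conjugating enzyme of the anaphase-promoting complex, was at 12.2 CPM at P24-30 and 3.87 CPM at P12 (3.77, 2.69 to 5.37). That ratio rests on 147 UMIs at P24-30 and 46 UMIs at P12.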

How the data were processed

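The P24-30 file holds, as deposited, natural log values per gene and cell (the log of 1 plus the gene's scaled share of the cell's UMIs). Undoing the log gave whole UMIs, within 0.001, for 100% of its 6195642 nonzero values. The P12 file holds whole-number counts as deposited, which were taken as UMIs. CASAVA and mm10 are named per the submitters' processing notes; aligner, counting tool and choice of barcodes are not stated there. Of the P12 barcodes, 28 contain an N and 43 pairs differ by 1 base.

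Cells under 500 UMIs (153 at P24-30, 9 at P12) were left out, as were those with over 20% mitochondrial UMIs (49 at P24-30, 268 at P12). Doublets were not called. P12 cells were clustered without the 8 members in scanpy 1.11.5 with igraph 0.11.9 (2000 variable genes, 30 principal components, 15 neighbours, Leiden resolution 1, seed 1). Clusters were named from marker lists by mean log2 fold over the other cells (pseudocount 20 CPM). UMIs were summed and scaled to CPM with numpy 2.4.6 and pandas 2.3.3, and exact Poisson, binomial and conditional 95% intervals were computed with scipy 1.17.1. The calculations were checked on simulated counts. Genes with at least 50 UMIs entered the backgrounds, in both libraries together for the age comparison and in the library for the comparisons of states. A fold of 1.5 between ages and of 2 between states was used to count genes. Named genes were the 8 members, their 3 likest genes, the 5 likest of the sum, and members of the chosen pathway lists. Members and lists were chosen with earlier results of these data known.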

Additional observations from a re-analysis of the deposited data

How the results depend on the processing

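With 1 library per age no replicate could be left out. No paired analysis was possible because each age has 1 library and the labels carry no replicate numbers. The summed level at P24-30 over P12 was 0.588 and stayed below 1 under each scaling tried. It was 0.624 with ribosomal protein and mitochondrial genes left out of the total, 0.706 relative to the median gene and 0.564 with the total taken over genes named in both files. Member UMIs per mitotic-list UMI gave 0.875 at P24-30 over P12, and 0.899 with cells thinned to 500 UMIs. That ratio reversed to 1.09 without list genes that share sequence with other genes, and to 1.08 without such members as well, both chosen after the data were seen, and the cause was not tested. G16 over the other tags, 3.99, became 4.31 without the 5% of cells with most UMIs, 4.47 with thinned cells, 3.66 without Tpx2 and 5.88 when the highest quintile of the mitotic list replaced the tag. Mitotic-like over other P12 cells, 4.22, became 4.005 with at least 1000 UMIs per cell, 4.599 with thinned cells and 3.93 without Tpx2. The other 22 recomputed values of these summed results, among them Leiden resolutions 0.5 and 2, moved by less than their counting interval or, for counts, by less than 1.5 times. Of the values recomputed for single members, for the passenger share differences and for Bora in G10, 40 moved by less than that and 27 by more. None of them changed direction.

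In several tags and clusters, large ones such as G13 and G1/S-like among them, the share of cells with a member UMI is not told from that of G8, the tag with raised microglia markers, or of microglia-like cells; depth limits the small tags further. Tags and clusters can hold doublets, and the level of Bora in G10 fell to 141 CPM without 1 cell, against 232 CPM with it.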
